A study of Rattus norvegicus with 6 samples.

Results

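The transcripts described here encode the cAMP response element-binding protein CREB, its relatives and coactivators, and subunits of the cAMP-dependent protein kinase PKA. They are the 10 rat genes Creb1, Crem, Atf1, Crtc1, Crtc2, Crtc3, Prkaca, Prkacb, Prkar1a and Prkar2b, found by symbol among the 38445 genes of the count files. The gene symbols came from a RefSeq table that named 29322 of the identifiers. Each symbol matched 1 identifier, and all 10 genes passed the filter on low counts that left 18141 genes. RNA-seq was carried out on amygdala tissue of adult male Sprague Dawley rats (strain label Sprague Dawley/WT) killed 1 h after an intraperitoneal injection of saline (control) or of ethanol at 1 g/kg (acute ethanol). RNA of 2 rats was pooled for each library, so 6 rats per group gave 3 libraries, and p-values measure the spread between such pools. The dissected tissue held the central, medial and basolateral nuclei and is a mixture of cell types, so fewer cells of a type and less RNA per cell cannot be told apart.

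PKA is held inactive as a complex of catalytic and regulatory subunits, and cAMP releases the catalytic subunits by binding to the regulatory ones. The freed kinase phosphorylates CREB, which sits at cAMP response elements in promoters and then recruits the acetyltransferases CBP and p300. The CRTC proteins are a second arm of the same switch, since calcineurin and the salt-inducible kinases decide whether they enter the nucleus and join CREB. In the amygdala this pathway has long been studied for its part in anxiety and in the response to alcohol. Phosphorylation, binding and location of these proteins are not measured by counts of mRNA.

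Some of these genes carry the DNA element that CREB binds, or its core, in their own promoters. The sequences are shown because Crem is both a member of the CREB family and one of its textbook targets. RefSeq promoter windows of build GRCr8, from 250 bases before to 50 bases after a transcription start, were found for 9 of the 10 genes, 12 windows in all. Atf1 had no entry. They were searched on both strands for the palindromic 8-base element TGACGTCA and for the 5-base core TGACG, the core being counted only outside the full element. In the sequences below, capitals mark these motifs and the reading is 5′ to 3′ on the strand of the gene. Window 1 of Creb1 lies on the plus strand at chr9:73397259-73397558, and the 3 Crem windows lie on the plus strand at chr17:58933816-58934115, chr17:58984547-58984846 and chr17:58985240-58985539.
Creb1, window 1: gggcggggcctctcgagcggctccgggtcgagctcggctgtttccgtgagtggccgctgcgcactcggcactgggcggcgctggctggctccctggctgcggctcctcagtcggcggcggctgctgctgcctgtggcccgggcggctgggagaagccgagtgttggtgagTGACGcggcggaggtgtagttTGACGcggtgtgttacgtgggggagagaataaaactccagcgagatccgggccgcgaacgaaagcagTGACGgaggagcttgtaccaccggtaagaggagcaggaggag
Crem, window 1: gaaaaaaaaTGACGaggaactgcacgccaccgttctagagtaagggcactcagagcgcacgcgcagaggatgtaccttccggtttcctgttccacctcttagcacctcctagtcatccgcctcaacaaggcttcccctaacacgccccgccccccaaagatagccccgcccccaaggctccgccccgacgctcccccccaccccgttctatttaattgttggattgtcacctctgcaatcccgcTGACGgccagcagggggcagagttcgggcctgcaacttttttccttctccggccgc
Crem, window 2: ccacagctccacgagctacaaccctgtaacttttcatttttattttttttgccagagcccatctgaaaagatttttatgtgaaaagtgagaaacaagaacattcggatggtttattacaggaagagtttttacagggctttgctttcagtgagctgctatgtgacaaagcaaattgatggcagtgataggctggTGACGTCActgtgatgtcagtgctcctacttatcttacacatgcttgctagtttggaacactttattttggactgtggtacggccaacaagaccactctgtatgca
Crem, window 3: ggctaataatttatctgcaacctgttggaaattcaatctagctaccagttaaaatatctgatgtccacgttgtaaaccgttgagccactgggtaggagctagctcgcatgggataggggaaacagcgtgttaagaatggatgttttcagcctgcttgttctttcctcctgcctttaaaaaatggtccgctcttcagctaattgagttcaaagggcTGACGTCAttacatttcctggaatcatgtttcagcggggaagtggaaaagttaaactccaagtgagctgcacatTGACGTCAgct

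Window 3 of Crem holds 2 full elements, starting 35 bases before and at base 40 after the start. Window 2 holds 1, which begins 56 bases before the start, and window 1 has only cores. Of the 33469 promoter windows in the table, 1.83% held a full element and 0.0418% held at least 2. Window 1 of Creb1 held 3 cores and no full element, and its other window held neither motif. Cores without a full element were also found for Crtc2 (1 core), Prkaca (2 cores) and Prkacb (1 core), while the windows of Crtc1, Crtc3, Prkar1a and Prkar2b held neither motif. A full element or a core was present in 7 of the 12 windows of these genes and in 21.2% of all windows. The reads were counted per gene, so transcripts from the different Crem starts, among them those of the short inducible repressor ICER, are summed in 1 value.

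The libraries held between 62576504 and 70755739 assigned reads. Marker genes of other cell types differed widely between libraries. The summed level of 10 choroid plexus markers was 525 to 1133 CPM (counts scaled to a library of 1000000 reads, after TMM scaling, which evens out differences in library composition) in the control libraries, and 14.99, 15.8 and 486 CPM in ethanol 1, 2 and 3. All 9 tested markers of this list were lower after ethanol (6 at an unadjusted p below 0.05), as were all 10 markers of motile cilia (7 at that level, sums of 115 to 161 CPM in controls and 96.5 to 104 CPM after ethanol). The sums of 10 oligodendrocyte markers ranged from 3862 to 8989 CPM in controls and from 4714 to 10357 CPM after ethanol, with 0 of 10 markers at that level. Cortical-type glutamatergic markers summed to 1558 to 2086 CPM in controls and 1658 to 2384 CPM after ethanol (9 of 10 higher, 1 of them, Tbr1, at that level), and striatal-type markers to 402 to 575 and 429 to 605 CPM (0 of 10 at that level). Astrocyte markers summed to 6405 to 7870 and 6631 to 8938 CPM (1 of 10 at that level, lower), and microglia markers to 426 to 494 and 435 to 510.4 CPM (1 of 10, higher). Of these lists, only Otx2 of the choroid plexus was too low to be tested. Over all genes tested, 1.59% were higher and 2.61% lower at an unadjusted p below 0.05. Camk2a, a general marker of excitatory forebrain neurons, was at 674 to 905 CPM over the 6 libraries, and no list of markers particular to the amygdala was checked.

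The level of the 10 transcripts was compared first, as CPM divided by the exonic length in kilobases (RPKM), because exonic lengths differ from 2110 bases in Atf1 to 7933 bases in Creb1. Prkar1a, the type I regulatory subunit, stood at the top with a mean of 232.7 RPKM over the 6 libraries, above 98.7% of the genes tested. The catalytic subunits followed, with 84.6 RPKM for Prkaca and 76.8 RPKM for Prkacb, then Crtc1 with 33.1 RPKM and Prkar2b with 30.7 RPKM. Crtc2 reached 14.2 RPKM and Atf1 10.9 RPKM. Creb1 itself was at 3.19 RPKM, above 42.2% of the genes tested, Crem at 2.09 RPKM and Crtc3 lowest at 0.839 RPKM. The PKA subunits held 4 of the 5 highest places, and the 3 transcription factors were all below Crtc2.

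**Figure D1:**
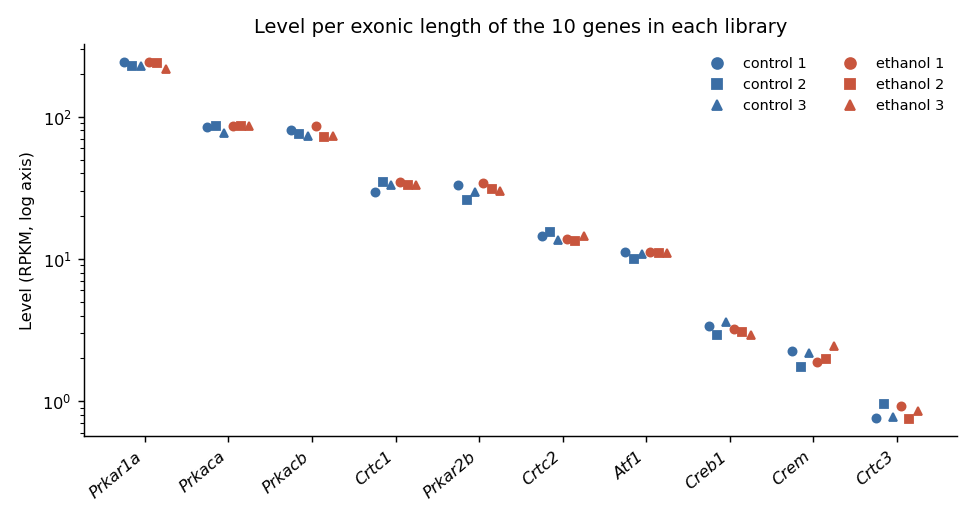
Level of each gene in RPKM on a log axis, ordered by the mean of the 6 libraries, with control libraries in blue and ethanol libraries in red (circle, square and triangle for replicates 1, 2 and 3). The order runs from Prkar1a at 217.8 to 243.2 RPKM down to Crtc3 at 0.755 to 0.951 RPKM, and for each gene the blue and red points overlap.

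Most neighbours in this order were apart in each of the 6 libraries. Prkar1a was above Prkaca by a mean log2 ratio of 1.46 ± 0.08 (SD, n = 6 libraries). Prkaca was above Prkacb in 6 of 6 libraries, but by a log2 ratio of only 0.14 ± 0.10 (SD), and in ethanol 1 the ratio was 0.012. Crtc1 and Prkar2b did not differ beyond their spread, with a log2 ratio of 0.11 ± 0.20 (SD) and Crtc1 higher in 5 of 6 libraries. Atf1 was above Creb1 by a log2 ratio of 1.77 ± 0.12 (SD), the widest gap between neighbours. The order of the catalytic subunits depends on length, since Prkacb, with 7916 exonic bases against 2520 in Prkaca, had more reads (605 against 208 CPM in the control group). The order of Atf1 and Creb1 depends on length too, with 2110 exonic bases in Atf1 and 7933 in Creb1. Mean levels of Creb1 and Atf1 were 26.3 and 22.5 CPM in controls, and 24.4 and 23.4 CPM after ethanol. Lengths are those of all annotated exons of a gene, so an RPKM understates a gene whose transcripts leave some of them out.

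The comparison of ethanol with saline asks whether this signalling axis changes at the transcript level 1 h after the injection. No change was detected in any of the 10 genes. The groups were compared with the quasi-likelihood test of edgeR, its p-values adjusted by Benjamini-Hochberg over 18141 genes. By this test 0 of the 10 had an adjusted p below 0.2, the threshold of the study, where 0% of all genes tested did. The paper itself did report changed genes at this threshold. For the 10 genes the count was also 0 with DESeq2, with limma-voom and with edgeR's likelihood ratio test. Among all 18141 genes these tests gave 75, 0 and 77, so few of any 10 genes would be counted. At an unadjusted p below 0.05 there were 0 of 10, beside 4.21% of all genes, made up of 1.59% for higher and 2.61% for lower genes. The 3 libraries of a group lay wholly above those of the other for 0 of 10 genes, while among all genes 3.65% were wholly higher and 5.19% wholly lower after ethanol (8.85% together). The adjusted p was 0.9999 for each of the 10 from edgeR's quasi-likelihood test. Log2 fold changes ran from -0.11 to 0.10 with a median of 0.030, and 8 were above 0, beside a median of 0.0068 and 9559 genes above 0 for all genes tested.

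**Figure D2:**
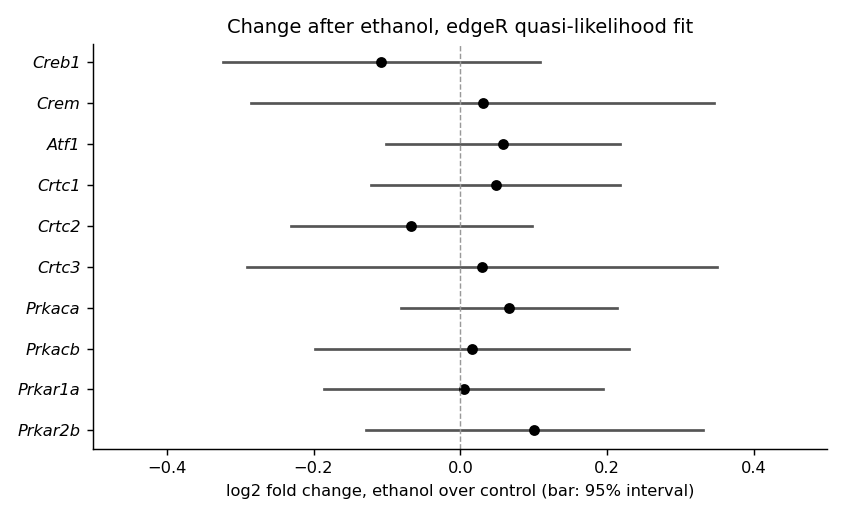
Log2 fold change of each gene, ethanol over control, from the edgeR fit (dot), with its 95% interval (bar); the dashed line marks no change. Each interval includes 0, and the bounds lie between -0.32 and 0.35.

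The 95% intervals give the range of changes compatible with these libraries. They were narrowest for Prkaca, from -0.08 to 0.21 on the log2 scale, a fold of 0.945 to 1.16. They were widest for Crtc3, from -0.29 to 0.35, and Crem, from -0.28 to 0.35, a fold of 0.821 to 1.27. Creb1 had an interval from -0.32 to 0.11, a fold of 0.799 to 1.08. A rise or fall of any of these transcripts by a log2 value over 0.35 thus lies outside its interval, while smaller changes, up to the bounds given, do not.

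Prkar1a is found on chromosome 10 (97940705 to 97959199, genome build Rnor_6.0, as for all genes here), its exons forming 13 blocks. It encodes the regulatory subunit that forms type I PKA in the cytosol. Its levels were 837, 789 and 789 CPM in control 1, 2 and 3 and 843, 825 and 755 CPM in ethanol 1, 2 and 3. The highest and the lowest value were both in ethanol libraries, so the groups overlapped fully. The log2 fold change was 0.0045 (standard error 0.08, edgeR's unadjusted p = 0.958). Prkar2b, on chromosome 6 from 51265509 to 51356383, encodes the type II regulatory subunit enriched in brain, which anchoring proteins hold at membranes and synapses. It was measured at 120, 92.9 and 107 CPM in the controls and at 123, 112 and 108 CPM after ethanol. Control 2 was low and ethanol 1 high, and control 1 exceeded 2 of the ethanol libraries. Prkar2b had the largest positive value of the 10, a log2 fold change of 0.10 (standard error 0.10, edgeR's unadjusted p = 0.339), and it was 0.012 without control 2, 0.044 without ethanol 1 and 0.18 without control 1.

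Prkaca, the most widely expressed catalytic subunit, lies on chromosome 19 from 25095089 to 25118869. It had 213, 217 and 194 CPM in the controls and 218, 218 and 217 CPM after ethanol. The ethanol libraries lay close together, ethanol 1 and 2 just above control 2 and ethanol 3 just below it. The control mean was 208 ± 12.4 CPM (SD, n = 3) and the ethanol mean 218 ± 0.66 CPM (SD, n = 3). On the log2 scale this was a difference of 0.07 (standard error 0.06, edgeR's unadjusted p = 0.330), and it was 0.019 without control 3. Prkacb, the catalytic subunit with strong expression in the brain, lies on chromosome 2 from 252602197 to 252691886 and gave 636, 600 and 579 CPM in the controls. After ethanol it gave 681, 571 and 582 CPM. Ethanol 1 was the highest of the 6 libraries and ethanol 2 the lowest. Its log2 fold change was 0.016 (standard error 0.09, edgeR's unadjusted p = 0.868).

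Creb1, the activator that gives the pathway its name, lies on chromosome 9 from 71229753 to 71298994 in 13 exonic blocks. Its levels were 27.0, 23.1 and 28.8 CPM in the controls and 25.7, 24.4 and 23.1 CPM after ethanol. Controls 1 and 3 stood above all ethanol libraries, while control 2 was as low as ethanol 3. The means were 26.3 ± 2.9 CPM (SD, n = 3) and 24.4 ± 1.31 CPM (SD, n = 3). The log2 fold change of -0.11 (standard error 0.09, edgeR's unadjusted p = 0.284) had the largest size among the 10 genes. It was -0.19 without control 2, with an unadjusted p of 0.0446 and an adjusted p of 0.972 from edgeR, -0.037 without control 3 and -0.068 without ethanol 3.

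Crem, which gives rise to activators and to the repressor ICER, lies on chromosome 17 from 57021704 to 57090888. It had 16.3, 12.6 and 15.8 CPM in the controls and 13.6, 14.3 and 17.7 CPM after ethanol. Ethanol 3 was the highest library and control 2 the lowest, with the others mixed. Its log2 fold change was 0.030 (standard error 0.14, edgeR's unadjusted p = 0.829), and the sign turned without control 2 (-0.078) or without ethanol 3 (-0.093). Atf1, the remaining member of the family, binds the same elements as a dimer with CREB and lies on chromosome 7 from 141882261 to 141924790. It gave 23.6, 21.0 and 22.8 CPM in the controls and 23.7, 23.3 and 23.2 CPM after ethanol. Only control 2 and control 3 lay below the ethanol libraries, which again were close together. The log2 fold change was 0.06 (standard error 0.07, edgeR's unadjusted p = 0.423), and it was 0.011 without control 2 and 0.088 without control 1.

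Crtc1, the coactivator found mainly in neurons, lies on chromosome 16 from 20740746 to 20798145. It was measured at 181, 212 and 201 CPM in the controls and at 211, 201 and 202 CPM after ethanol. The controls took both the lowest and the highest place. Its log2 fold change was 0.048 (standard error 0.07, edgeR's unadjusted p = 0.531), and it was -0.022 without control 1. Crtc2, known for its part in hepatic glucose production, lies on chromosome 2 from 189615928 to 189625646 and gave 33.5, 35.5 and 31.1 CPM in the controls against 31.6, 30.7 and 33.2 CPM after ethanol. Its log2 fold change was -0.07 (standard error 0.07, edgeR's unadjusted p = 0.374), the only negative value beside that of Creb1. It was -0.019 without control 2, -0.040 without ethanol 2 and -0.11 without control 3. Crtc3 lies on chromosome 1 from 142398248 to 142500562 and had 245, 332 and 242 counts in the controls and 293, 239 and 294 counts after ethanol. With 3.72 to 4.67 CPM it was the least abundant of the genes, and its log2 fold change was 0.029 (standard error 0.14, edgeR's unadjusted p = 0.838).

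The spread between libraries was not the same for all members. Over the 6 libraries the coefficient of variation was lowest for Prkar1a (4.24%), Atf1 (4.44%) and Prkaca (4.45%), and highest for Crem (12.6%), Crtc3 (10.4%) and Prkar2b (9.7%). Control 2 held extreme values of 6 genes. It was the highest library for Crtc1, Crtc2 and Crtc3 and the lowest for Crem, Atf1 and Prkar2b. Control 2 also had the lowest oligodendrocyte marker sum (3862 CPM) and the highest choroid plexus sum (1133 CPM) of the 6 libraries, and the part of cell composition in these values was not tested. Ethanol 1 was the highest library for 5 genes, Atf1 and the 4 PKA subunits.

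**Figure D3:**
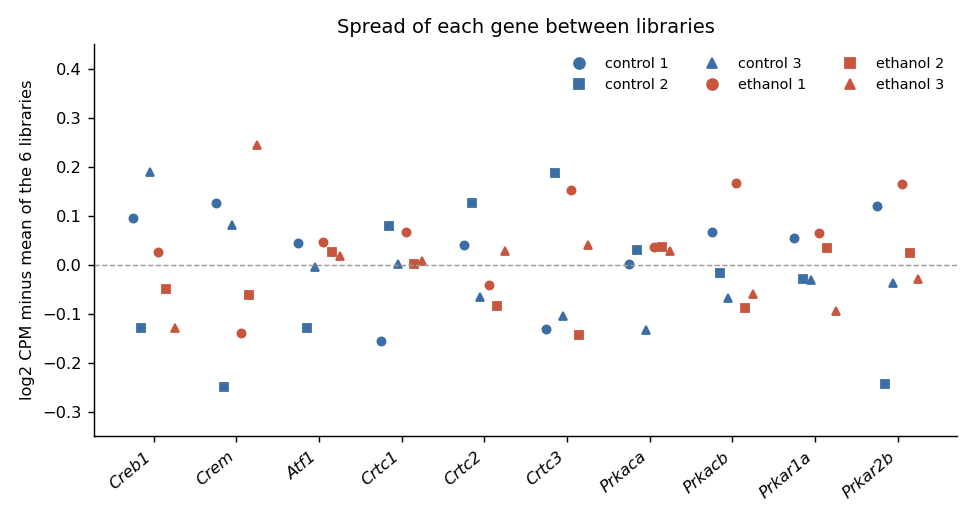
Log2 CPM of each gene minus its mean over the 6 libraries, control in blue and ethanol in red. The CRTC genes are highest in control 2 (blue square), which is the lowest library for Crem, Atf1 and Prkar2b, and in all 10 genes the groups overlap.

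Shares within a class do not depend on the scaling of libraries, so the composition of each class was compared as the percent of its summed RPKM. Like the order of levels above, the sizes of these shares depend on exonic length. Among the catalytic subunits, Prkaca made up 52.0% ± 1.13 (SD, n = 3) in controls and 52.9% ± 2.36 (SD, n = 3) after ethanol. The regulatory class also counts Prkar1b and Prkar2a, and type I subunits filled most of it. Prkar1a took 43.7% ± 1.6 in controls and 41.9% ± 0.345 after ethanol, Prkar1b 46.1% ± 2.6 and 48.0% ± 0.99, Prkar2a 4.61% ± 0.274 and 4.45% ± 0.449, and Prkar2b 5.58% ± 0.74 and 5.71% ± 0.261 (SD, n = 3 for each). The ratio of catalytic to regulatory transcripts was 0.306, 0.298 and 0.293 in the controls and 0.298, 0.277 and 0.309 after ethanol, which overlap (2-sided exact permutation test, p = 0.9).

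In the CREB family, Atf1 supplied 66.5% ± 1.53 (SD, n = 3) in controls and 68.2% ± 0.82 (SD, n = 3) after ethanol, and Crem 12.9% ± 0.78 and 13.0% ± 1.83. The large share of Atf1 holds only per exonic length. Without division by length, the control means were 22.5 CPM for Atf1, 26.3 CPM for Creb1 and 14.9 CPM for Crem. Creb1 was the only one of the 12 shares whose groups did not overlap. By level, the groups did not overlap for 8.85% of all genes tested. The Creb1 share stood at 20.1%, 19.9% and 21.8% in the controls and at 19.8%, 19.1% and 17.8% after ethanol. The difference of -1.74 percentage points had p = 0.1 in a 2-sided exact permutation test, the smallest that 3 libraries against 3 allow, and 0.6 after Benjamini-Hochberg adjustment over the 12 shares. With counts not divided by length, the p of the same exact test was 0.3 for Creb1. It was then 0.1 for Prkar1a, with a difference of -1.78 percentage points. Among the coactivators, Crtc1 made up 67.9% ± 1.94 in controls and 69.6% ± 0.972 after ethanol, Crtc2 30.4% ± 1.92 and 28.7% ± 0.977, and Crtc3 1.73% ± 0.111 and 1.75% ± 0.141 (SD, n = 3 for each). The exact test gave p-values of 0.2 to 0.9 for these 3 genes.

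**Figure D4:**
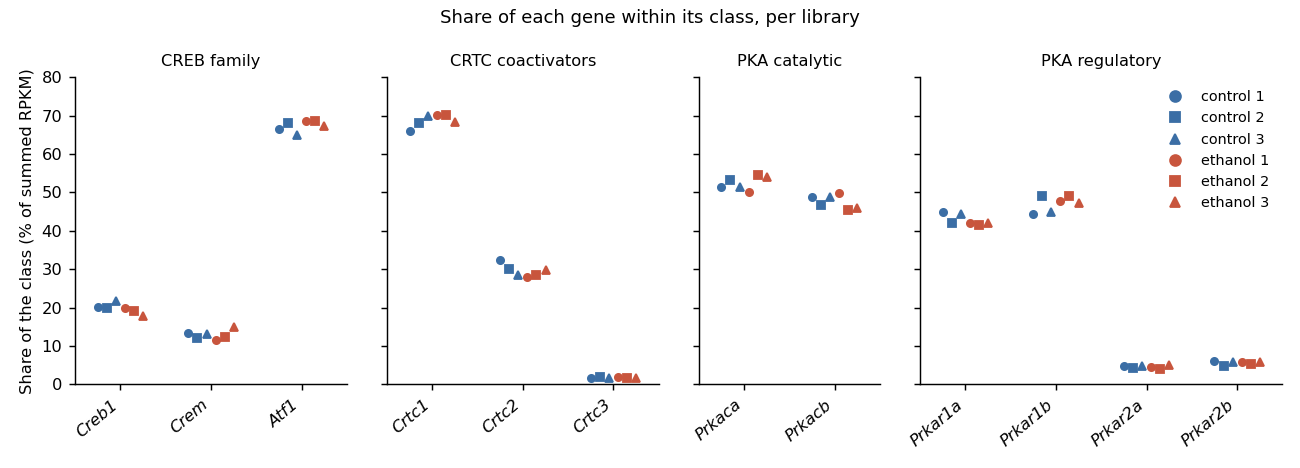
Share of each gene in the summed RPKM of its class, in percent, for each of the 6 libraries, control in blue and ethanol in red. Atf1 holds 65.0% to 68.7% of the CREB family and Crtc1 65.9% to 70.2% of the CRTC class, and only for Creb1 do the 3 red points all lie below the 3 blue ones.

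The other genes of the pathway were followed in 6 lists written from general knowledge, 88 genes of which 86 were tested. With edgeR's quasi-likelihood test, 0 of the 86 had an adjusted p below 0.2, and 11 (12.8%) had an unadjusted p below 0.05, against 4.21% of all genes tested. Of the 11, 8 were higher and 3 lower after ethanol. The number was 6 without ethanol 1 and 17 without ethanol 3. Over all genes tested it was 763 of 18141 with all libraries, 665 of 18439 without ethanol 1 and 1638 of 18356 without ethanol 3. The lists were drawn up with results of these libraries known, so the count is a description. With DESeq2 and with edgeR's likelihood ratio test, 1 of the 86 genes, Dusp1, had an adjusted p below 0.2, and with limma-voom 0 did. Of all 18141 genes tested, 75, 77 and 0 did with these tests, in that order.

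**Figure D5:**
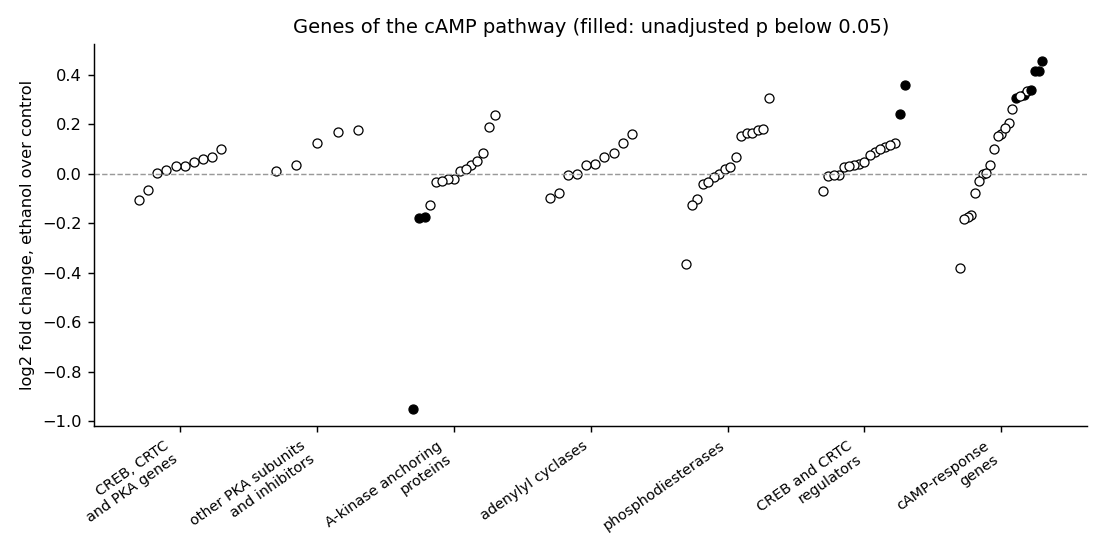
Log2 fold change, ethanol over control, of each tested gene (circle) in the CREB, CRTC and PKA group and in 6 lists of the cAMP pathway; filled circles have an unadjusted p below 0.05. The filled circles are 3 anchoring proteins below 0, 2 regulators and 6 cAMP-response genes above 0, and there are 0 in the other groups.

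Upstream of PKA, the adenylyl cyclases make cAMP and the phosphodiesterases break it down. They gave 0 of 10 and 0 of 16 genes at an unadjusted p below 0.05, beside 4.21% of all genes tested. Their median log2 fold changes were 0.037 and 0.022. Adcy1, a calcium-stimulated cyclase and the most abundant of its list, had 408, 464 and 515 CPM in the controls and 522, 571 and 378 CPM after ethanol, and ethanol 3 was the lowest of the 6 libraries. Pde2a, the phosphodiesterase with the highest count, had 571 to 670 CPM and 529 to 697 CPM, with a log2 fold change of 0.017 (standard error 0.12). The groups overlapped for Adcy1 and for Pde2a. Leaving out ethanol 2 brought 4 of the phosphodiesterases to an unadjusted p below 0.05, and leaving out any other library 0 or 1. Over all genes tested, 596 of 18414 reached that level without ethanol 2.

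Among the other PKA subunits and inhibitors, 0 of 5 genes had an unadjusted p below 0.05, beside 4.21% of all genes tested. All 5 had positive log2 fold changes, from 0.012 to 0.18, and their median was 0.13. Of all 18141 genes tested, 9559 were above 0. Prkar1b, the neuronal type I regulatory subunit, was at 615, 688 and 593 CPM in the controls and 712, 728 and 630 CPM after ethanol. Ethanol 1 and 2 were above the controls and ethanol 3 among them (log2 fold change 0.13, standard error 0.09, edgeR's unadjusted p = 0.218), and the value was 0.083 without control 3. Of the 15 tested anchoring proteins, 3 were lower at an unadjusted p below 0.05 and 0 higher, beside 2.61% and 1.59% of all genes tested. The 3 were Akap8, a nuclear anchoring protein, its relative Akap8l, and Akap14, an anchoring protein of ciliary axonemes. Akap8 was at 97.9 to 103 CPM in the controls and at 80.5 to 95.9 CPM after ethanol (log2 fold change -0.18, standard error 0.08, edgeR's unadjusted p = 0.0483 and adjusted p = 0.9999). Akap8l gave 188 to 207 CPM and 167 to 180 CPM (log2 fold change -0.18, standard error 0.06). Akap14 gave 0.535 to 1.1 CPM and 0.28 to 0.529 CPM, beside the lower cilia markers given above, and the part of cilia in its value was not tested. Akap8 was at a log2 fold change of -0.10 without ethanol 2, and Akap14 at -0.60 without control 2. The 3 anchoring proteins became 0 without control 2 or without ethanol 1, and 1 without control 1 or without ethanol 2. Over all genes tested, 707, 665, 732 and 596 reached that level in these fits, in that order, and 763 with all libraries. The most abundant member, Akap11, had a log2 fold change of 0.05 (standard error 0.08), which ran from 0.0092 without ethanol 1 to 0.12 without ethanol 3. Akap4 was listed at 0 in all libraries.

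The list of CREB and CRTC regulators held 17 genes, of which 2 were higher at an unadjusted p below 0.05 and 0 lower. Of all genes tested, 1.59% were higher and 2.61% lower at that level. Camk4, the nuclear kinase that phosphorylates CREB in answer to calcium, was at 136, 102 and 119 CPM in the controls and at 160, 152 and 146 CPM after ethanol. Each ethanol library exceeded each control, with a log2 fold change of 0.36 (standard error 0.10, edgeR's unadjusted p = 0.00879 and adjusted p = 0.9999). Camkk2, which activates Camk4, had 31.9, 35.6 and 31.9 CPM and then 38.7, 44.5 and 34.2 CPM. Ethanol 3 lay below control 2, and the log2 fold change was 0.24 (standard error 0.10, edgeR's unadjusted p = 0.0473 and adjusted p = 0.9999). Without ethanol 2 it was 0.14, with an unadjusted p of 0.173 from edgeR. The glutamatergic marker sum moved in part with these values, with its highest levels in ethanol 1 and 2 (2132 and 2384 CPM) but 2086 CPM in control 2, the library lowest in Camk4, and its part was not tested. Ppp3r1, the calcineurin subunit with the highest count, had a log2 fold change of 0.08 (standard error 0.11), which ran from 0.012 without ethanol 1 to 0.18 without ethanol 3. At that level there were 6 genes of this list without ethanol 3, 2 without control 2 and 1 without any other library. The genes of the whole table at that level also rose without ethanol 3, from 763 to 1638.

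The cAMP-response genes, textbook targets of CREB, held 6 of the 8 pathway genes that were higher at an unadjusted p below 0.05. Of 23 tested genes, 6 were higher and 0 lower at that level, beside 1.59% and 2.61% of all genes tested. Of the 23, 16 had a positive log2 fold change, beside 9559 of all 18141 genes tested, and the median of the 23 was 0.16. With 1 library left out, between 4 and 8 genes reached that level, and between 590 and 1638 of all genes tested did. Dusp1, a phosphatase of MAP kinases, was at 21.6, 19.8 and 18.6 CPM in the controls and 26.1, 28.7 and 25.2 CPM after ethanol. Every ethanol library was above every control (log2 fold change 0.42, standard error 0.08), with an adjusted p of 0.807 from edgeR's quasi-likelihood test, 0.0697 from its likelihood ratio test and 0.0346 from DESeq2. The paper lists Dusp1 as increased, in RNA-seq and in qPCR. Egr1, an activity-induced transcription factor, was at 56.4, 51.6 and 45.1 CPM and then 69.6, 59.4 and 64.3 CPM, again without overlap (log2 fold change 0.34, standard error 0.10). Btg2, an antiproliferative gene induced with the immediate-early genes, was at 20.8, 26.0 and 20.9 CPM and then 34.3, 29.4 and 26.5 CPM (log2 fold change 0.41, standard error 0.12), and the groups did not overlap.

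Per1, the clock gene that responds to cAMP, was at 60.5, 68.4 and 51.8 CPM and then 68.5, 82.4 and 72.6 CPM, ethanol 1 being barely above control 2 (log2 fold change 0.31, standard error 0.11). Junb, of the AP-1 family, and Cartpt, a neuropeptide precursor, had log2 fold changes of 0.32 (standard error 0.11) and 0.45 (standard error 0.18), and their groups overlapped. Junb was at 0.21 without ethanol 1 (edgeR's unadjusted p = 0.0863), and Cartpt at 0.26 without ethanol 2 (edgeR's unadjusted p = 0.123). Per1 lost an unadjusted p below 0.05 without control 1, control 3 or ethanol 2, Junb also without control 3, and Cartpt also without control 2, control 3 or ethanol 3. Dusp1, Egr1 and Btg2 had an unadjusted p below 0.05 whichever library was left out. Adjusted p-values from edgeR's quasi-likelihood test were 0.9999 for Per1, Junb, Cartpt, Egr1 and Btg2. Penk, the enkephalin precursor with the highest count of the list, had a log2 fold change of 0.18 (standard error 0.19). Npy, which the amygdala is known to express, was listed at 0 counts in all 6 libraries and was not tested. Why it is at 0 was not settled here, and the 0 is not taken as absence of expression. Several of these genes also answer to other signals, such as glucocorticoids and calcium.

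Full cAMP response elements marked 6 of the 18 cAMP-response genes that had a promoter window. By window these were 6 of 23, beside 1.83% of all windows. The genes were listed as targets of CREB, so this share is a description. In these windows the element of Sst began at base 3 after the transcription start. Those of the others began before it, from 201 bases (Btg2) to 90 bases (Vgf). The stretch around each element is shown, with the element in capitals, in build GRCr8 and on the strand of the gene. These are sites of the kind CREB binds. They lie at chr10:17184719-17184746 (plus strand) for Dusp1, chr13:48087874-48087901 (minus) for Btg2, chr2:32991360-32991387 (minus) for Cartpt, chr12:25277093-25277120 (minus) for Vgf, chr11:90461538-90461565 (plus) for Sst and chr14:63634117-63634144 (plus) for Ppargc1a.
Dusp1: gcagggcgggTGACGTCAccacccggtc
Btg2: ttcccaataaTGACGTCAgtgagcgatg
Cartpt: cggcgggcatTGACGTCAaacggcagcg
Vgf: gaatgaacatTGACGTCAatggggcggg
Sst: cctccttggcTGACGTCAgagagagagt
Ppargc1a: tgcctcggagTGACGTCAggagtttgag

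The log2 fold changes of the 6 genes with a full element ran from -0.077 to 0.45. Dusp1, Btg2 and Cartpt had the log2 fold changes of 0.42, 0.41 and 0.45 given above. Vgf, a neuropeptide precursor, had 0.16 (standard error 0.08, edgeR's unadjusted p = 0.0751), with 0.09 without control 3 and 0.23 without control 2 (edgeR's unadjusted p = 0.262 and 0.0170). Sst, the somatostatin precursor in whose promoter the element was first studied, had 0.0009 (standard error 0.11, edgeR's unadjusted p = 0.993). Ppargc1a, a coactivator of mitochondrial genes, had -0.077 (standard error 0.08, edgeR's unadjusted p = 0.334). The Ppargc1a value ran from -0.023 without control 2 to -0.13 without ethanol 2. Per1 held neither motif in its window, and Egr1 and Junb held only cores. The last 3 genes with an element, Vgf, Sst and Ppargc1a, were named for that element and not for their values.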

How the data were processed

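RNA-seq had been carried out on amygdala RNA pooled from 2 rats per library, 3 libraries per group, sequenced as single-end 100 nt reads on 3 lanes. The authors deposited raw counts per gene. Per the file headers and the submitters' processing notes, reads were quality-trimmed, aligned with STAR 2.7.0f to Rnor_6.0 and counted by featureCounts 1.6.3 over exons with the reverse-stranded setting (2), leaving out multimapping reads and reads shared by genes, which can lower genes with close copies. No exon of the 10 genes shared bases with another gene on its strand.

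The main test used edgeR 4.0.16 under R 4.3.3. The filterByExpr function (minimum count 10, total 15) removed low genes, libraries were scaled by TMM (factors 0.976 to 1.01) and groups were compared by the quasi-likelihood test with Benjamini-Hochberg adjustment and a threshold of 0.2. Standard errors are the absolute log2 fold change divided by the square root of F. Exact permutation tests go through 20 label swaps. RPKM uses the exonic length of the files. Assigned reads per library lay between 62576504 and 70755739; intervals cover the spread between pools. Within groups, libraries differed by more than counting error (chi-square per degree of freedom 14.3 to 67.6). The fit was tested on simulated data with log2 changes of size 1 and 2. At an adjusted p below 0.2 it found 86% and 100% of the changed genes, and also 39 unchanged genes. Changes as small as those of the 10 genes were not simulated, so their detection was not tested. DESeq2 1.42.0, limma 3.58.1, other scalings, no filter, a replicate block and fits without each library were the alternatives. Promoter sequences came from RefSeq in GRCr8.

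The 10 genes, the lists and the tests were chosen with earlier results of these data known. The genes named are the 10, the genes of each pathway list with an unadjusted p below 0.05 and its most abundant gene, and the target genes with a full element. Marker lists are given by their sums and counts.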

Additional observations from a re-analysis of the deposited data

How the results depend on the processing

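The count of 0 among the 10 genes at an adjusted p below 0.2 was the same under all 13 alternatives. Of their 130 log2 fold changes under these alternatives, 116 kept their sign and 14 turned it, and all lay between -0.19 and 0.18. With library size alone in place of TMM, Prkacb turned to -0.011 and Prkar1a to -0.023, while the median of all genes moved from 0.0068 to -0.020. Pde2a turned to -0.012 and Sst to -0.027 with that scaling, and Sst to -0.0017 with DESeq2 size factors and with DESeq2. With 1 library left out, log2 fold changes ran from -0.093 to 0.11 for Crem, -0.022 to 0.10 for Crtc1, -0.040 to 0.14 for Crtc3, -0.068 to 0.063 for Prkacb, -0.027 to 0.052 for Prkar1a, -0.040 to 0.24 for Adcy1, -0.056 to 0.13 for Pde2a, -0.0013 to 0.36 for Penk and -0.086 to 0.082 for Sst. Share differences in percentage points ran from -0.926 to 0.817 for Crem, -0.289 to 0.422 for Prkar2b, -0.0434 to 0.0968 for Crtc3 and -0.396 to 0.0508 for Prkar2a, and the Crtc3 difference was -0.000508 without division by length. The cause of these turns was not tested. The genes of the whole table past the adjusted threshold of 0.2 numbered 0 with edgeR's quasi-likelihood test (763 at an unadjusted p below 0.05), 75 with DESeq2, 77 with edgeR's likelihood ratio test, 0 with limma-voom and 0 to 82 with 1 library left out, 82 without ethanol 3 and 4 without ethanol 1. For the pathway lists the count of 0 became 1 with DESeq2 and with edgeR's likelihood ratio test, Dusp1 both times.

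Both groups number their libraries 1 to 3, but same-numbered ones hold RNA of different rats. Their deviations from the group means correlated by 0.0271, 0.387 and 0.21 over 14241 genes for the numbers 1, 2 and 3, and control 1 correlated more with ethanol 3 (0.304), so the numbers are not taken as pairs. With the replicate number as a block, 0 genes and 0 of the 10 had an adjusted p below 0.2 from edgeR's quasi-likelihood test. The pathway genes at an unadjusted p below 0.05 went from 11 to 19, and all genes at that level from 763 to 1030.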
